A study of Mus musculus with 12 samples.

Results

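The BCL2 family of apoptosis genes was followed through 12 MYCN-driven neuroendocrine tumors of mice. The family was taken as 10 genes, namely the anti-apoptotic Bcl2, Bcl2l1 and Mcl1, the effectors Bax and Bak1, and the BH3-only genes Bcl2l11, Pmaip1, Bbc3, Bid and Bad. Every probe set that the array's annotation paired with 1 of these symbols alone was used, whatever its values. This gave 29 probe sets for 9 of the 10 genes, among 18193 genes with a probe set of their own. The annotation used here paired no probe set with Bax, which was not analysed here. Bcl2 and Bcl2l11 had 5 probe sets each, Mcl1 had 6, Bcl2l1 had 4, Bid had 3, Bak1 and Bad had 2 each, and Pmaip1 and Bbc3 had 1 each.

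All tumors arose in untreated LSL-MYCN;hGFAP-Cre mice of mixed background, in which Cre recombinase under the human GFAP promoter releases a blocked MYCN transgene together with a luciferase reporter. The transgene was therefore switched on in every tumor of both groups, and the labels set the groups apart by tissue alone. The 9 pancreatic tumors were compared with 3 tumors that carry the label brain, which the study describes as tumors of the pituitary gland and which are called pituitary tumors here. A mouse of this line can bear tumors at both sites, and the labels give neither the ages nor which tumors shared a mouse, so that p-values measure the spread between tumors. Arrays of normal pancreas were not analysed here.

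Proteins of the BCL2 family decide whether the outer mitochondrial membrane stays closed. Anti-apoptotic members such as BCL2, BCL-XL (encoded by Bcl2l1) and MCL1 bind and restrain the effectors BAX and BAK, which otherwise form pores that release cytochrome c and lead to caspase activation. BH3-only proteins carry stress signals to the family by occupying the anti-apoptotic members or by activating the effectors directly, and MYC proteins are known to make cells more prone to this route of death.

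Each tumor was measured on 1 array, and the number of arrays limits the precision. Values are log2 signals, the array medians lay between 5.45 and 5.69, and a signal at or below the median of its array is called low here, since the table holds no detection calls. Marker genes followed the labelled tissue. The mean log2 signal of 6 measured anterior pituitary genes of 8 listed was 11.15 to 12.92 in pituitary and 5.07 to 6.02 in pancreatic tumors, and that of 4 endocrine pancreas genes of 7 listed was 6.68 to 7.24 and 9.31 to 12.71. The mean of 5 neuroendocrine genes of 6 listed was 10.54 to 12.57 in 11 tumors and 8.47 in pancreatic tumor 2. Other tumors stood apart as well. The mean of 4 hepatocyte genes of 5 listed was 14.66 in pancreatic tumor 2, 12.71 in tumor 3 and 12.97 in tumor 4, against 7.26 to 10.27 in the other 6 pancreatic and 6.29 to 7.38 in the pituitary tumors. Of these genes, Ttr lay between 9.72 and 14.69 in all tumors. Alb was also high in tumors 11 and 12 (12.28 and 11.01), against at most 8.78 in tumors 1, 5, 9 and 10. Pituitary tumors 6 and 8 carried high astrocyte genes (5 of 5 measured, mean 11.58 and 11.34) and neuron genes (5 of 5 measured, mean 9.95 and 10.00), whereas pituitary tumor 7 read 7.39 and 6.71 and the pancreatic tumors at most 6.72 and 5.96. The β-actin 3′ signal exceeded its 5′ signal, a sign of RNA degradation or short labelling when large, by 3.48 in pancreatic tumor 5, by 0.57 to 0.87 in tumors 10, 11 and 12, and by 1.51 to 2.20 in the remaining tumors of both sites. In bulk tissue, fewer cells of a type and less RNA per cell cannot be told apart.

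None of the 9 measured BCL2 family genes passed the test between the sites. In the limma fit over all probe sets, 0 of 9 genes and 0 of 29 probe sets reached an adjusted p under 0.05 in either direction. Over all genes, 6.11% passed, of which 1.61% of genes were higher in pancreatic and 4.5% higher in pituitary tumors, and over all probe sets the shares were 4.63%, 1.18% and 3.45%. At an unadjusted p under 0.05 stood 3 of the 9 genes (Bcl2, Bcl2l1 and Bid) and 5 of the 29 probe sets, where 23.8% of all genes and 19.4% of all probe sets did. The difference, always given as pancreatic minus pituitary on the log2 scale, was above 0 for 5 genes and below 0 for 4. Its median was 0.09 over the 9 genes and 0.03 over all genes, and the median absolute difference was 0.50 and 0.33. By the representing probe sets, the 95% interval of the difference lay within 1 log2 unit of 0 for 3 genes (Bcl2l1, Mcl1 and Bad). For the other 6 genes these tumors do not bound the difference to under 2-fold. Some other probe sets of Bcl2l1 and Mcl1 had intervals beyond 1. They ran from -0.33 to 1.58 for Bcl2l1 1426191_a_at and from -0.04 to 2.36 for Mcl1 1456381_x_at. The count of genes passing stayed at 0 without pancreatic tumors 2, 3 and 4, without tumors 10, 11 and 12, and without tumors 5, 10, 11 and 12. In these fits, the 533 pancreatic and 1552 pituitary calls of the main fit became 557 and 1191, 214 and 571, and 209 and 465. Fits on fewer tumors mostly have less power, so a count that stays at 0 adds little to the main fit. Leaving out pituitary tumors 6 and 8 leaves 1 pituitary tumor, and the count from that fit is not read as a result.

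**Figure D1:**
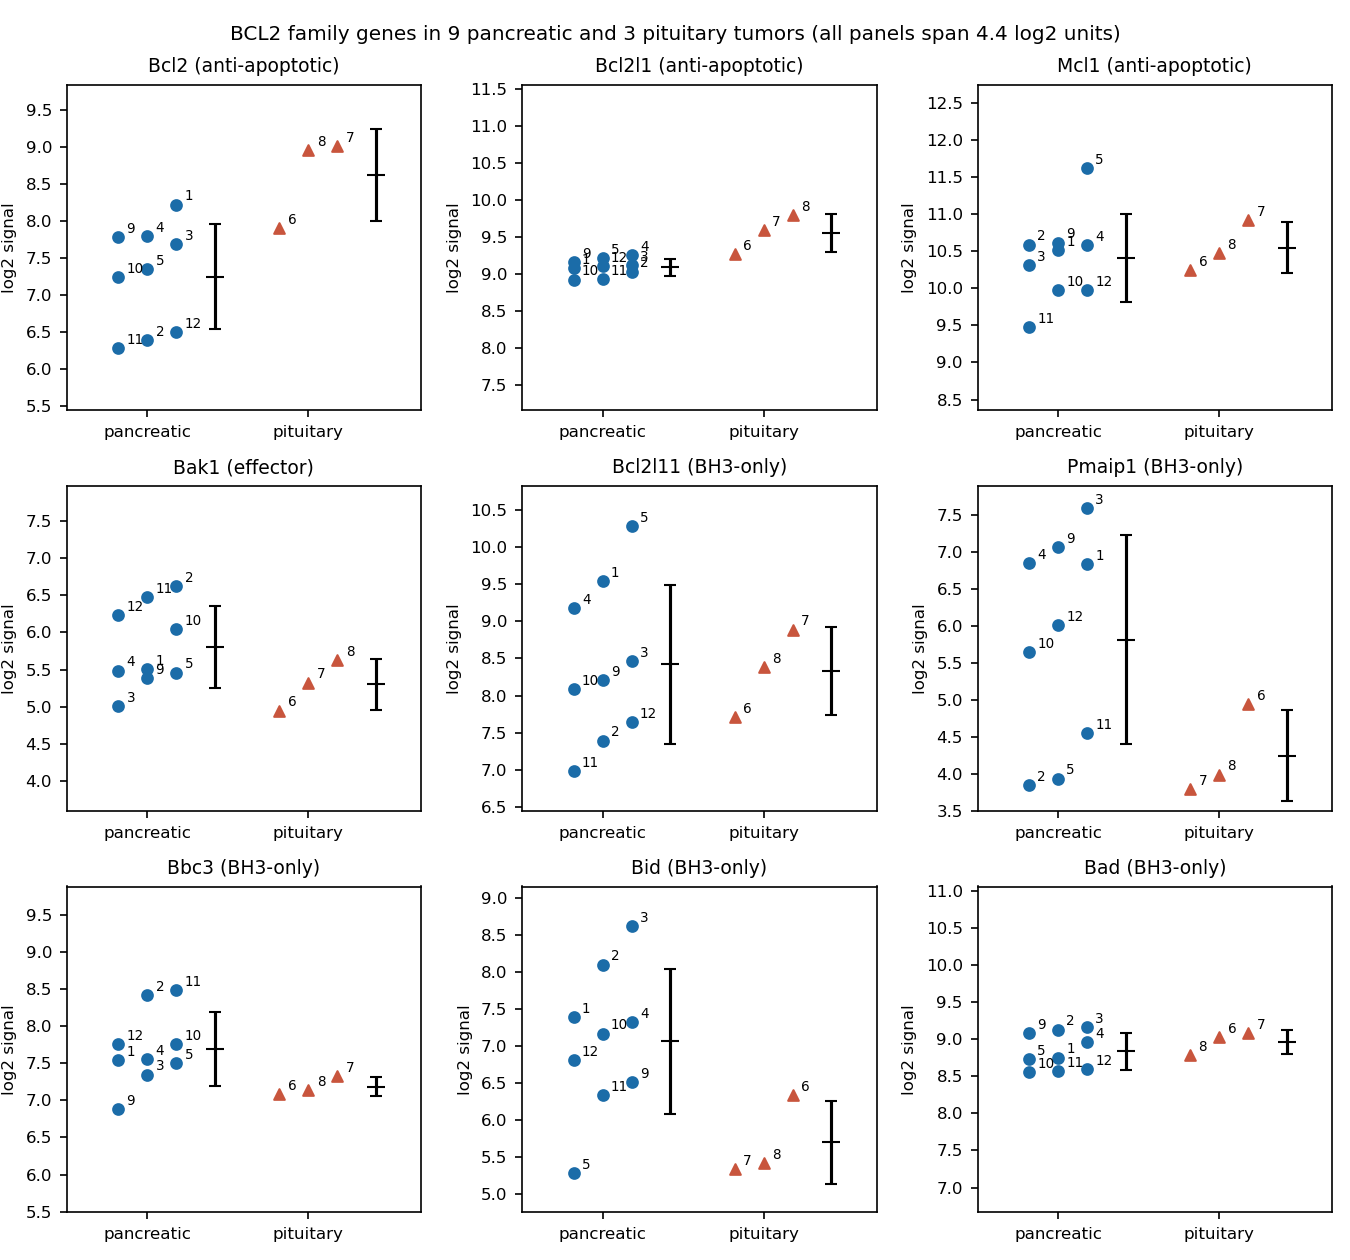
Log2 signal of the probe set that represents each of the 9 measured BCL2 family genes, with 1 numbered point per tumor, circles for pancreatic and triangles for pituitary tumors, and a bar for the mean and SD of each group. Every panel spans 4.4 log2 units, so that the narrow cloud of Bcl2l1 (SD 0.12 among the 9 pancreatic tumors) can be set against the wide one of Pmaip1 (SD 1.41).

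Among the anti-apoptotic genes, Bcl2 had the largest difference. Its representing probe set, 1457687_at, ranged from 6.28 in pancreatic tumor 11 over a median of 7.35 to 8.22 in tumor 1, and read 7.90, 9.01 and 8.95 in pituitary tumors 6, 7 and 8. Pituitary tumors 7 and 8 lay above every pancreatic tumor, while pituitary tumor 6 lay inside the pancreatic range. The means were 7.25 ± 0.70 (SD, n = 9) and 8.62 ± 0.62 (SD, n = 3), a difference of -1.37 (SE 0.43, 95% interval -2.30 to -0.44) or 2.59-fold higher in pituitary tumors, which did not pass (limma, adjusted p = 0.0955). The mean of the astrocyte genes was 11.58, 7.39 and 11.34 in the same 3 pituitary tumors and that of the neuron genes 9.95, 6.71 and 10.00, and the part of brain cells in the Bcl2 values was not tested. A second probe set of the gene, 1437122_at, had the same sign, with a median of 5.81 in pancreatic tumors and values of 5.77, 7.22 and 7.06 in the pituitary tumors (difference -0.92, limma, adjusted p = 0.241). Its signal was low in 4 of 9 pancreatic tumors. The other 3 probe sets of Bcl2 differed by 0.04, -0.09 and -0.36. The last 2 of these, 1440770_at and 1443837_x_at, were each low in 8 of 9 pancreatic and 2 of 3 pituitary tumors. With the 5 probe sets averaged, those with low signals included, the difference was -0.54 (limma, adjusted p = 0.349). Array weights count an array less the more it departs from its group over all probe sets. With them, the difference of 1457687_at was -0.86 (limma, adjusted p = 0.170).

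Bcl2l1 encodes BCL-XL, and its splicing also yields a shorter pro-apoptotic form. Its representing probe set, 1420888_at, had the smallest spread of the family. The 9 pancreatic tumors lay between 8.92 in tumor 10 and 9.26 in tumor 4 with a median of 9.10, and pituitary tumors 6, 7 and 8 read 9.27, 9.59 and 9.79. The groups did not overlap, although pituitary tumor 6 lay just above the highest pancreatic tumor, and Bcl2l1 was the only 1 of the 9 genes without overlap, where 9.56% of all genes and 7.88% of all probe sets showed none. The means were 9.09 ± 0.12 (SD, n = 9) and 9.55 ± 0.26 (SD, n = 3). The difference of -0.46 (SE 0.13, 95% interval -0.74 to -0.18), 1.38-fold higher in pituitary tumors, did not pass (limma, adjusted p = 0.0648). It passed in the fit without moderation of the variance (limma, adjusted p = 0.0462).

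The other probe sets of Bcl2l1 had differences of the opposite sign, none of which passed. Probe set 1426191_a_at read 5.97, 6.00 and 6.07 in pancreatic tumors 10, 11 and 12. In the other 6 pancreatic tumors it lay between 4.24 and 4.87, and in pituitary tumors 6, 7 and 8 at 4.51, 4.21 and 4.37. Tumors 10, 11 and 12 thus stood on their own, and the signal was low in all others of both sites. 1420887_a_at split the tumors likewise, with 5.74, 5.83 and 5.89 in tumors 10, 11 and 12 and 4.13 to 4.52 in the other pancreatic tumors. The differences between the sites were 0.63 for each of these 2 probe sets (limma, adjusted p = 0.465 and 0.416), and for 1426191_a_at 0.11 without tumors 10, 11 and 12. These 3 tumors are also those with the lowest β-actin 3′ to 5′ gap, and its part in the split was not tested. With all 4 probe sets of Bcl2l1 averaged, the difference of the gene turned to 0.24 (limma, adjusted p = 0.533), and the fourth, 1426050_at, was low in all 12 tumors.

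Mcl1, a short-lived anti-apoptotic protein, showed no difference beyond the spread between tumors, and its 6 probe sets did not rank the tumors alike. The representing probe set, 1437527_x_at, ranged from 9.48 in pancreatic tumor 11 over a median of 10.52 to 11.62 in tumor 5, and read 10.25, 10.92 and 10.48 in the pituitary tumors. The groups overlapped, with a difference of -0.14 (SE 0.35, 95% interval -0.89 to 0.62, limma, adjusted p = 0.860), which turned to 0.20 with the 6 probe sets averaged. Together with 1456243_x_at, which read 11.40 in tumor 5 and 9.10 in tumor 11, it was highest in the tumor with the largest β-actin 3′ to 5′ gap and lowest in that with the smallest. 1448503_at and 1416881_at, by contrast, were lowest in tumor 5 (8.95 and 7.59) and highest in tumor 2 (10.80 and 9.77), which also had the highest hepatocyte genes. The largest difference among the 6, 1.16 for 1456381_x_at, rested on pituitary tumors 6 and 7 (7.58 and 7.98), since pituitary tumor 8 at 9.49 lay inside the pancreatic range (limma, adjusted p = 0.274). The suffix x in a probe set's name marks probes that can bind other transcripts as well. The parts of RNA quality and of hepatocyte RNA in these ranks were not tested.

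**Figure D2:**
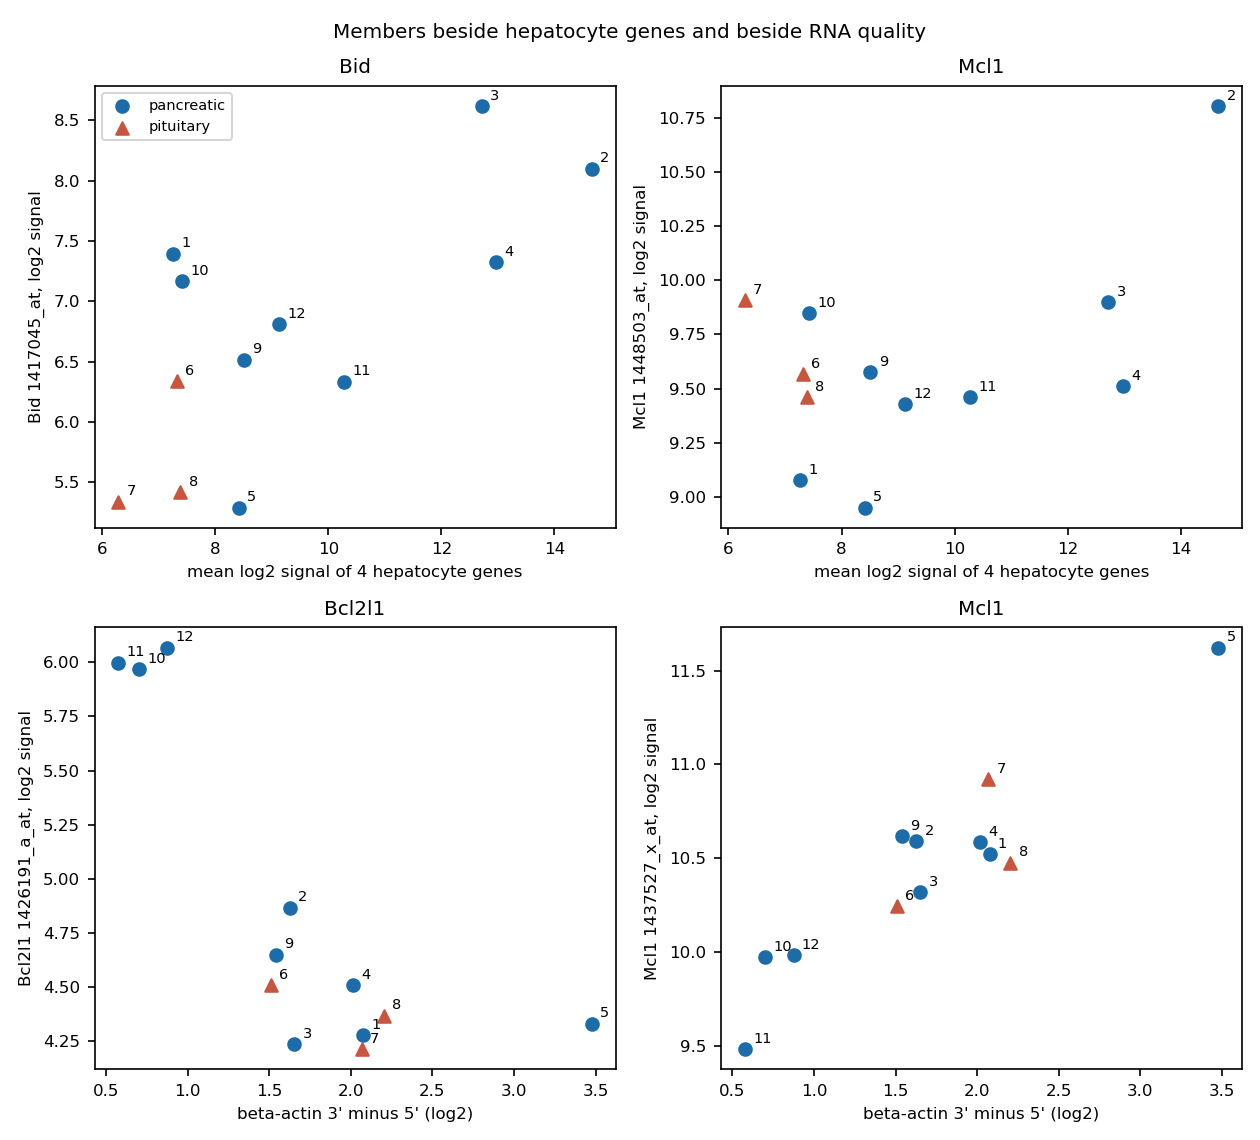
Log2 signal of 4 probe sets in each of the 12 numbered tumors, for Bid 1417045_at and Mcl1 1448503_at against the mean log2 signal of 4 hepatocyte genes, and for Bcl2l1 1426191_a_at and Mcl1 1437527_x_at against the β-actin 3′ minus 5′ signal. Circles are pancreatic and triangles pituitary tumors. Tumor 2 is highest on both axes of the Mcl1 1448503_at panel, and tumors 10, 11 and 12 form a group of their own in both β-actin panels.

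Of the effectors, Bak1 could be followed. BAK, its product, sits in the mitochondrial membrane and forms the pore together with BAX. 1418991_at ranged from 5.00 in pancreatic tumor 3 over a median of 5.51 to 6.62 in tumor 2, and read 4.95, 5.32 and 5.63 in pituitary tumors 6, 7 and 8. Pancreatic tumors 2, 10, 11 and 12 lay above all pituitary tumors at 6.05 or more, whereas the other 5 overlapped with them, and the signal was low in 5 of 9 pancreatic and 2 of 3 pituitary tumors. The difference was 0.50 (SE 0.33, 95% interval -0.21 to 1.22, limma, adjusted p = 0.430), and 0.28 without tumors 10, 11 and 12. The second probe set, 1425716_s_at, was low in all 12 tumors.

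Of the BH3-only genes, Pmaip1 encodes NOXA, which binds chiefly MCL1 and is a target of p53. Its probe set, 1418203_at, was 7.59 in pancreatic tumor 3, 7.06 in tumor 9, 6.84 in tumor 4, 6.83 in tumor 1, 6.01 in tumor 12 and 5.65 in tumor 10, but 4.55, 3.94 and 3.85 in tumors 11, 5 and 2. Pituitary tumors 6, 7 and 8 read 4.94, 3.80 and 3.99. Hence 6 of 9 pancreatic tumors lay above all pituitary tumors, and in the other 3, as in all 3 pituitary tumors, the signal was low. The means were 5.81 ± 1.41 (SD, n = 9) and 4.24 ± 0.61 (SD, n = 3), a difference of 1.57 (SE 0.79, 95% interval -0.14 to 3.28) that did not pass (limma, adjusted p = 0.301). With array weights, which take in no measure of RNA quality, it was 2.03 and passed (limma, adjusted p = 0.0452). These weights raised the calls over all probe sets from 533 higher in pancreatic and 1552 higher in pituitary tumors to 1849 and 3179. Hepatocyte genes were high in tumors 2, 3 and 4, of which Pmaip1 was lowest in tumor 2 and highest in tumor 3. The mean of the acinar pancreas genes was 5.33, 9.81 and 8.99 in these tumors. The parts of hepatocyte and acinar RNA in the Pmaip1 values were not tested.

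Bid encodes a protein that caspase-8 cleaves, and so ties the death receptors to the mitochondria. 1417045_at read 8.62, 8.10 and 7.33 in pancreatic tumors 3, 2 and 4, 7.39, 7.17, 6.81, 6.52 and 6.33 in tumors 1, 10, 12, 9 and 11, and 5.29 in tumor 5. Pituitary tumors 6, 7 and 8 read 6.34, 5.34 and 5.42. All but pancreatic tumors 5 and 11 lay above the pituitary tumors, and tumor 5 lay below them. The means were 7.06 ± 0.98 (SD, n = 9) and 5.70 ± 0.56 (SD, n = 3), a difference of 1.36 (SE 0.56, 95% interval 0.14 to 2.58), which did not pass (limma, adjusted p = 0.203). The signal was low in 2 of 3 pituitary tumors and in 1 pancreatic tumor, so that no firm fold can be given. Without tumors 2, 3 and 4, in which hepatocyte genes were high, the difference was 0.89 (limma, adjusted p = 0.298). Acinar pancreas genes were also high in tumors 3 and 4, and the parts of hepatocyte and acinar RNA were not tested. 1448560_at and 1447873_x_at differed in the same direction by 0.76 and 0.28 (limma, adjusted p = 0.261 and 0.664), and both were highest in tumor 3, but low in 3 of 3 pituitary tumors and in 4 and 8 of 9 pancreatic tumors.

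Bcl2l11 encodes BIM, which binds all anti-apoptotic members and is made in several splice forms. 1456005_a_at read 10.29 in pancreatic tumor 5, 9.54 in tumor 1 and 9.19 in tumor 4, and was lowest at 6.98 in tumor 11, with a median of 8.21. The pituitary tumors, at 7.71, 8.89 and 8.39, lay within this range, and the difference was 0.09 (SE 0.61, 95% interval -1.24 to 1.42, limma, adjusted p = 0.951). The interval thus allows more than a 2-fold difference either way. 1435448_at placed tumor 1 highest at 9.15, tumor 5 at only 7.75 and tumor 2 lowest at 7.20, with a difference of 0.40 (limma, adjusted p = 0.549). Tumor 5 was thus highest by 1 probe set and in the lower part of the range by another. 1435449_at and 1456006_at, also highest in tumor 1, differed by 0.21 and 0.20, and 1426334_a_at was low in all 12 tumors.

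Bbc3 encodes PUMA, a direct target of p53 that binds all anti-apoptotic members. 1423315_at ranged from 6.89 in pancreatic tumor 9 over a median of 7.56 to 8.49 in tumor 11, with 8.43 in tumor 2, and read 7.08, 7.33 and 7.14 in the pituitary tumors. In 8 of the 9 pancreatic tumors Bbc3 was above all pituitary tumors, and in tumor 9 it was below them. The means were 7.70 ± 0.50 (SD, n = 9) and 7.18 ± 0.13 (SD, n = 3), a difference of 0.51 (SE 0.29, 95% interval -0.11 to 1.14, limma, adjusted p = 0.357).

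As all tumors carry the MYCN transgene, the promoters of the family were searched for CACGTG, the E-box letters that MYC proteins bind together with MAX and that read the same on both strands. RefSeq promoter windows on GRCm38, from 250 bases before to 50 bases after a start site, were at hand for 8 of the 9 genes, 14 windows in all, with none for Pmaip1. The letters stood in 1 of the 14 windows, 1 of the 3 of Bbc3, and in 7.15% of all 32851 windows. The match lay at position -64 from the start site, at chr7:16310355-16310384 on the plus strand with its neighbouring bases, and is shown here with the E-box in capitals:
Bbc3: gcggggcgggcgCACGTGgcggcgtcgagg
The match is a description of the letters, and no binding was measured.

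Bad encodes a BH3-only protein that survival signals hold in check by phosphorylation. It differed little, with 1416582_a_at between 8.56 in pancreatic tumor 10 and 9.17 in tumor 3 around a median of 8.75, and at 9.03, 9.09 and 8.79 in pituitary tumors 6, 7 and 8. All pituitary tumors lay within the pancreatic range. The difference was -0.12 (SE 0.17, 95% interval -0.49 to 0.24, limma, adjusted p = 0.718), and its sign turned to 0.02 under quantile normalization. The second probe set, 1416583_at, differed by 0.04.

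**Figure D3:**
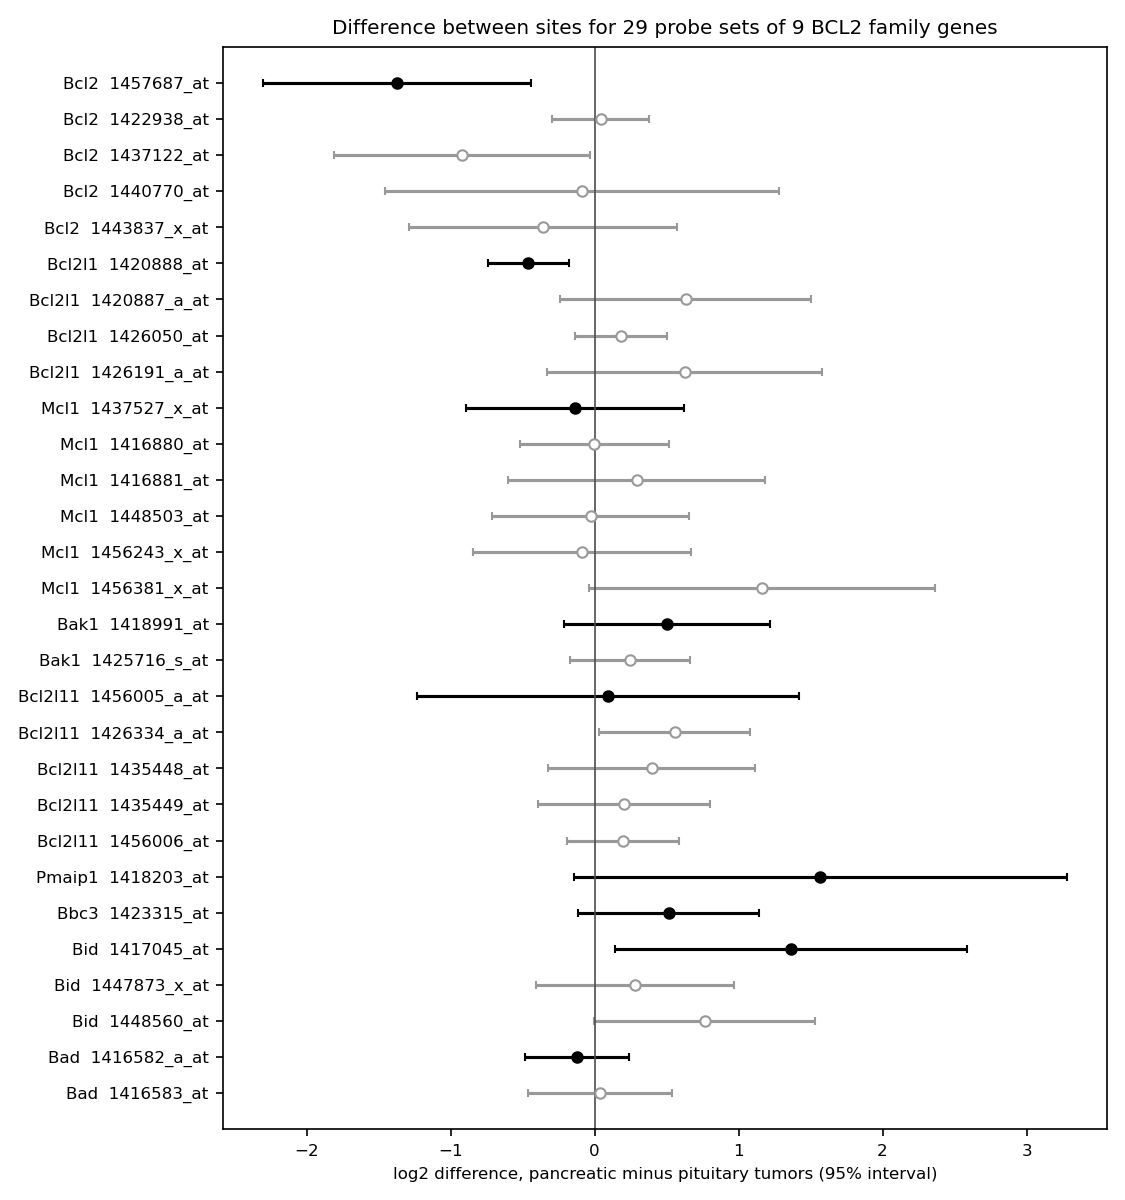
Difference in log2 signal, pancreatic minus pituitary tumors, with its 95% interval for the 29 probe sets of the 9 measured genes. Filled black points are the probe sets that represent a gene and open grey points the others. The intervals of 5 probe sets, 2 of Bcl2 and 1 each of Bcl2l1, Bcl2l11 and Bid, leave out 0, and none passed after adjustment over all 45037 probe sets.

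The genes of the family differed in how far they varied among the pancreatic tumors. By the representing probe sets, over the 9 pancreatic tumors, the SD of 7 of the 9 genes was above the median SD of all genes of 0.43, and that of 4 above the upper quartile of 0.69. The signal of Pmaip1 spanned 3.74 log2 units from tumor 2 to tumor 3 (SD 1.41, above that of 95.7% of genes) and that of Bid 3.33 units from tumor 5 to tumor 3 (SD 0.98, above 87.8%), and in both the lowest tumor had a low signal, so that these spans are no firm folds. The other 2 probe sets of Bid, low in 8 and 4 of 9 pancreatic tumors, had SDs of 0.55 and 0.60. By its representing probe set, Bcl2l11 spanned 9.85-fold from tumor 11 to tumor 5 (SD 1.07, above 90.2%). These are the tumors with the smallest and the largest β-actin 3′ to 5′ gap, 0.57 and 3.48, and the part of RNA quality was not tested. By 1435448_at and 1456006_at, each highest in tumor 1, Bcl2l11 spanned 3.87-fold and 1.83-fold (SD 0.57 and 0.28). Bcl2 spanned 3.84-fold, Mcl1 4.41-fold and Bbc3 3.03-fold, and the signal of Bak1, low in 5 tumors, 1.62 log2 units. At the other end, by the representing probe sets, Bad spanned 1.52-fold (SD 0.25) and Bcl2l1 1.26-fold, with an SD of 0.12 that only 1.75% of genes undercut. Bcl2l1 1420887_a_at and 1426191_a_at, low outside tumors 10, 11 and 12, had SDs of 0.72 and 0.79. No tumor led throughout. Tumor 3 was highest in 3 of the 9 genes (Pmaip1, Bid and Bad) and tumor 5 in 2 (Mcl1 and Bcl2l11), whereas tumor 11 was lowest in 3 (Bcl2, Mcl1 and Bcl2l11) and highest in Bbc3. Tumors 10, 11 and 12 as a set were lower than the other 6 pancreatic tumors by the representing probe sets of Bcl2l11 (difference in means -1.27), Mcl1 (-0.90) and Bcl2 (-0.86), and higher in Bak1 (0.68). By their other probe sets it ran from -0.24 to 0.57 for Bcl2l11, from -1.23 to -0.06 for Mcl1 and from -0.86 to 0.16 for Bcl2. These 3 tumors had the lowest β-actin 3′ to 5′ gap, whose part was not tested.

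**Figure D4:**
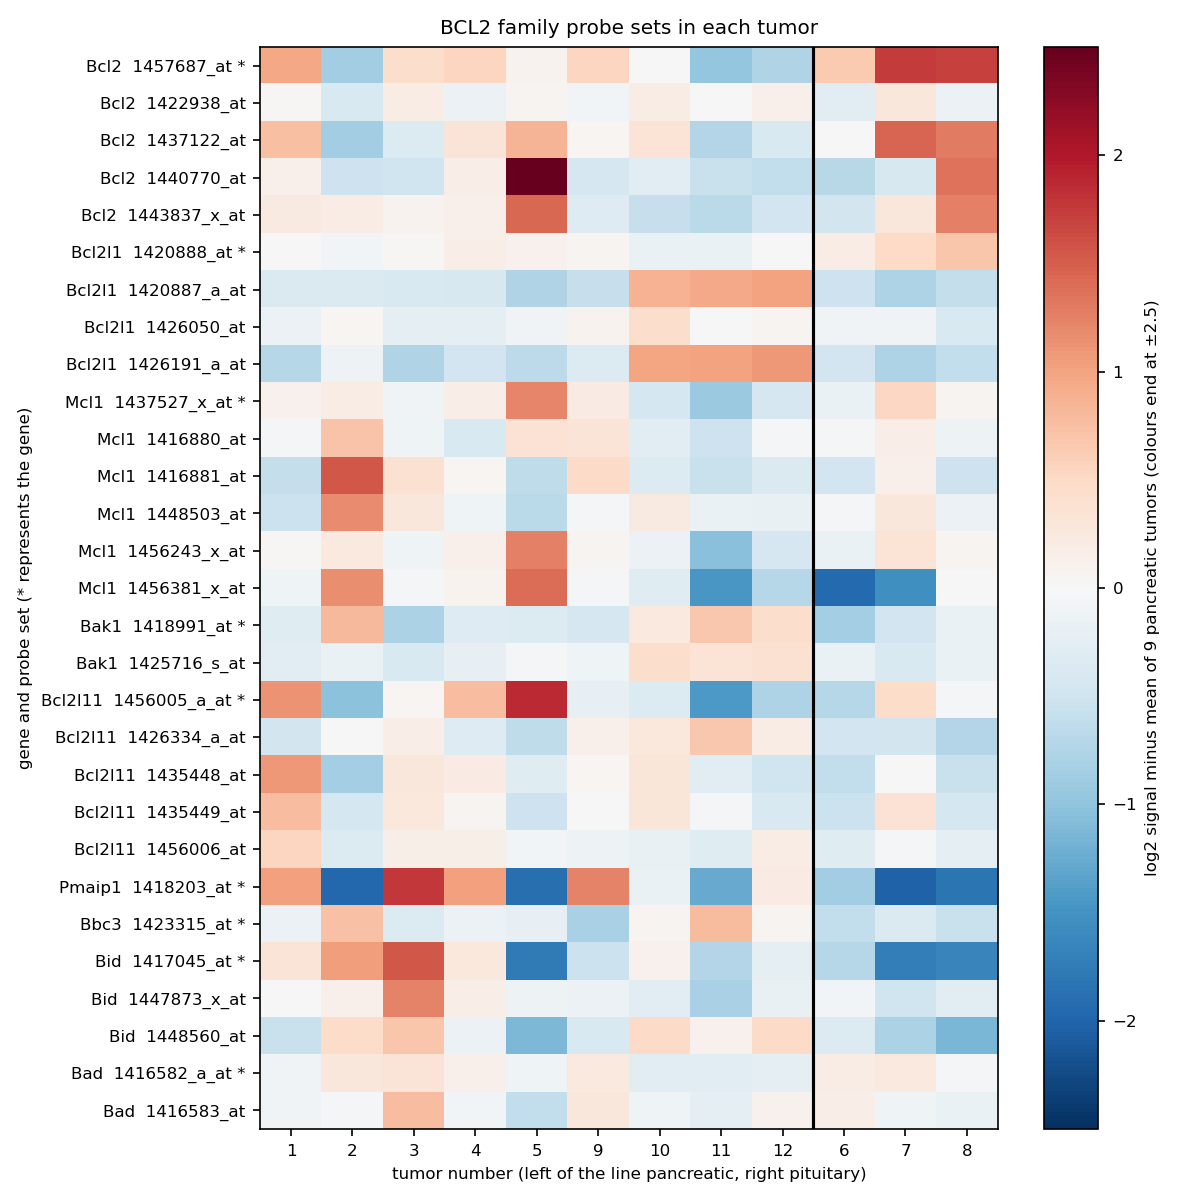
Log2 signal of each of the 29 probe sets in each of the 12 tumors, less the mean of the 9 pancreatic tumors, with colours that end at 2.5 log2 units either way and a star at the probe set that represents its gene. Pancreatic tumors stand left of the line and pituitary tumors right of it. Bcl2l1 1420887_a_at and 1426191_a_at set tumors 10, 11 and 12 apart, and Pmaip1 is split within the pancreatic tumors.

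Around the family, 58 genes in 7 lists of the apoptosis pathway were followed, of which 51 were measured. None was higher in pancreatic tumors, 1 was higher in pituitary tumors and 50 did not pass, where 6.11% of all genes passed. At an unadjusted limma p under 0.05 stood 14 of the 51, where 23.8% of all genes did. The median difference was 0.02. The 1 gene that passed was Apaf1, whose product assembles with cytochrome c into the apoptosome that activates caspase-9. 1452870_at lay between 5.05 and 6.24 in pancreatic tumors with a median of 5.91, and read 7.29, 6.45 and 7.20 in pituitary tumors 6, 7 and 8. The groups did not overlap, and pituitary tumor 7, with the lowest astrocyte and neuron means of the 3, was nearest to the pancreatic tumors. Apaf1 was higher in pituitary tumors, with a difference of -1.17 (SE 0.26, limma, adjusted p = 0.0264), which was -1.01 without pituitary tumor 6 (limma, adjusted p = 0.162) and -1.05 without pituitary tumor 8 (limma, adjusted p = 0.149), neither of which passed, and -0.64 without both (limma, adjusted p = 0.992). The other probe set of Apaf1 did not pass. The part of brain cells in this difference was not tested. In the list of cytochrome c release and the apoptosome, Apaf1 was the 1 of 9 measured genes that passed.

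In the other 6 lists no gene passed. From each, the gene with the largest difference is given. Among the other anti-apoptotic BCL2 proteins (2 of 5 measured), this was Bcl2l2, which encodes BCL-W, with means of 8.51 in pancreatic and 9.33 in pituitary tumors (difference -0.82, limma, adjusted p = 0.172). Among the other pro-apoptotic BCL2 proteins (5 of 6 measured), it was the effector-like Bok, with means of 8.91 and 8.25 (difference 0.66, limma, adjusted p = 0.218). Among caspases and their inhibitors (8 of 10 measured), it was Xiap, an inhibitor of caspases, with means of 8.82 and 9.64 (difference -0.82, limma, adjusted p = 0.173). Of the death receptor route to Bid (6 of 6 measured), Fas, a death receptor, had the largest difference, of 0.46 (limma, adjusted p = 0.703) at a signal that was low in 8 of 9 pancreatic and 3 of 3 pituitary tumors.

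Among transcriptional regulators of the BH3-only genes (12 of 13 measured), E2f1, a cell cycle factor that also activates apoptotic genes, had the largest difference. It lay between 7.04 and 8.20 in pancreatic tumors and at 6.83, 6.97 and 6.47 in pituitary tumors 6, 7 and 8, without overlap (difference 0.91, SE 0.25, limma, adjusted p = 0.0621). It passed with array weights, under quantile normalization, and without pancreatic tumor 2 or tumor 5 (limma, adjusted p = 0.0069, 0.0273, 0.028 and 0.0472). In the other 20 alternatives E2f1 did not pass. Its difference was 0.65 with its probe sets averaged and 0.76 without pituitary tumor 8 (limma, adjusted p = 0.136 and 0.293). Among partners and turnover factors of BCL2 proteins (9 of 9 measured), the largest difference was that of Fbxw7, part of a ubiquitin ligase that marks MCL1 for degradation. It lay between 7.41 and 8.80 in pancreatic tumors and read 10.35, 8.59 and 9.78 in pituitary tumors 6, 7 and 8, with a difference of -1.37 (SE 0.36, limma, adjusted p = 0.0539). Pituitary tumor 7 lay within the pancreatic range and the other 2 above it. The difference was -1.86 and passed without pituitary tumor 7 (limma, adjusted p = 0.00757), was -0.39 without pituitary tumors 6 and 8, and also passed with array weights and among probe sets above the median (limma, adjusted p = 0.0129 and 0.0464). The part of brain cells in it was not tested. Among probe sets that do not represent their gene, those of 2 pathway genes passed, where 4.63% of all probe sets did. These 2 are named after their values were seen. Mapk8, the kinase JNK1, lay between 5.20 and 6.91 in pancreatic tumors and read 8.95, 7.00 and 8.62 in pituitary tumors 6, 7 and 8 by 1440856_at (difference -2.02, limma, adjusted p = 0.02), while its representing probe set differed by -0.44 (limma, adjusted p = 0.324). Mouse Mycn lay between 4.00 and 4.89 in pancreatic tumors by 1417155_at, a signal low in 9 of 9, and read 6.74, 5.10 and 5.84 in the pituitary tumors (limma, adjusted p = 0.025). By 1440856_at and 1417155_at alike, pituitary tumors 6 and 8 read higher than 7, and the part of brain cells was not tested. The probe set that represents Mycn had the opposite sign, with means of 6.82 in pancreatic and 6.38 in pituitary tumors (difference 0.44, limma, adjusted p = 0.154).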

How the data were processed

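Total RNA of 9 pancreatic and 3 pituitary tumors was hybridized to Affymetrix MG-430_2.0 arrays, 1 per tumor. As deposited, the values are log2 signals, normalized across the arrays by the authors. Both Partek Genomics Suite and RMA appear in the study's methods, without a statement of which produced these signals. They were used with no further normalization, and groups were taken from the labels. All columns were matched to a tumor.

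Of 45101 probe sets, 64 controls were left out and 45037 were tested. In the platform annotation, 34945 of these have 1 gene symbol, 932 have several and 9160 have none in the table used. For each of the resulting 18193 genes, the probe set whose 2 group means averaged highest stood for the gene. The sites were compared in R 4.3.3 with limma 3.58.1 (lmFit and eBayes), with p-values adjusted by Benjamini-Hochberg over all probe sets tested and a threshold of 0.05. Spread within the pancreatic tumors was described by SD and range. Tables and figures were made in Python 3.11.15 with numpy 2.4.6, pandas 2.3.3 and matplotlib 3.10.9.

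The procedure was tested on simulated data of 45037 probe sets in the same groups, in which 50 probe sets were changed at each size. It called 1 of those changed by 0.5 log2 units, 15 of those changed by 1, 35 of those changed by 2 and 46 of those changed by 4, with 3 false calls. Most simulated differences of 1 log2 unit or less were thus missed. Far fewer probe sets were changed there than the 2085 that passed in the tumors, which makes the adjustment stricter. The share that the fit of the tumors would miss is therefore not given by this simulation.

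The text names all probe sets of the family and, from each pathway list, the genes past the threshold or else the 1 with the largest absolute difference. Members and lists were chosen with earlier results of these data known. The alternatives were median centring, quantile normalization, array weights, trended and robust variance, no moderation of the variance, probe sets above the median alone, averaging the probe sets of each gene, and leaving out single tumors, tumors 2 to 4, tumors 10 to 12 or pituitary tumors 6 and 8. A β-actin 3′ to 5′ covariate and the omission of tumors 5, 10, 11 and 12 were added after the values were seen. Some genes of the pathway lists are not reported here.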

Additional observations from a re-analysis of the deposited data

Results flagged for a closer look

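In 4 of the 29 probe sets of the family, 1 of the 9 pancreatic tumors lay far from the others by Dixon's test, in which the gap to the nearest tumor is divided by the whole range and compared with 0.493. Among values drawn from 1 normal distribution, chance gives such a value in about 1 in 20 groups. The share over all probe sets was not taken, so the count is no result about this family. Tumor 5 was high in 2 probe sets of Bcl2, with 6.86 in 1440770_at (ratio 0.753) and 5.78 in 1443837_x_at (ratio 0.57), and was not the highest tumor in the probe set that represents the gene. Tumor 5 is also the tumor with the largest β-actin 3′ to 5′ gap of 3.48, and the part of RNA quality was not tested. Tumor 10 was high in Bcl2l1 1426050_at with 4.57 (ratio 0.535), in a probe set that was low in all 12 tumors. Tumor 3 was high in Bid 1447873_x_at with 5.58 (ratio 0.523), and was also the highest tumor in the other 2 probe sets of Bid.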

How the results depend on the processing

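Over 24 alternatives, no BCL2 family gene passed except Bcl2l1 without moderation of the variance (1 gene higher in pituitary tumors) and Pmaip1 with array weights (2.03, 1 gene higher in pancreatic tumors), and no single tumor's omission changed either count. Fewer tumors mostly mean less power, so family counts that stayed at 0 when tumors were left out are weak evidence of no difference. No paired analysis was possible because the labels do not say which tumors shared a mouse. Of the pathway genes, 5 were higher in pituitary tumors with array weights, 3 when the probe sets of each gene were averaged, 2 with the β-actin covariate, 2 among probe sets above the median, and 0 under quantile normalization, without moderation, without tumors 10 to 12, without tumors 2 to 4, without tumors 5, 10, 11 and 12, and without pituitary tumors 6 and 8. Leaving out single tumors gave 0 (without pituitary tumor 6 or 8) to 2 (without pituitary tumor 7, pancreatic tumor 1 or tumor 5). Those higher in pancreatic tumors were 1 with array weights, 1 under quantile normalization, and 0 to 1 (without tumor 2 or 5) when single tumors were left out. Calls over all probe sets moved as well, from 533 higher in pancreatic and 1552 higher in pituitary tumors in the main fit. They were 1849 and 3179 with array weights, and 641 and 1421 under quantile normalization. Without pituitary tumor 6 they were 172 and 656, and without pituitary tumor 8 they were 180 and 760. With probe sets averaged, 403 and 917 of 18193 genes passed. The pathway counts are not read as a result about these genes. Without pituitary tumors 6 and 8, pituitary tumor 7 was alone in its group and was assumed to vary like the pancreatic tumors.

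All sign changes were in differences that passed in neither setting. The cause was not tested, except that averaging takes in probe sets of opposite sign. Under quantile normalization the difference was 0.0195 for Bad 1416582_a_at, 0.10 for Mcl1 1416880_at, 0.0836 for Mcl1 1448503_at and 0.0003 for Mcl1 1456243_x_at. Under median centring it was 0.0418 for Mcl1 1416880_at and 0.0143 for Mcl1 1448503_at. With all probe sets averaged it was 0.24 for Bcl2l1 and 0.20 for Mcl1. With array weights it was 0.0224 for Bcl2 1440770_at. With the β-actin covariate it was -0.0123 for Bad 1416583_at, 0.23 for Bcl2 1440770_at, 0.061 for Mcl1 1416880_at, 0.0604 for Mcl1 1437527_x_at and 0.10 for Mcl1 1456243_x_at. Without tumors 10 to 12 it was 0.0060 for Bad 1416582_a_at, -0.0116 for Bcl2 1422938_at, 0.15 for Bcl2 1440770_at, and 0.14, 0.16 and 0.18 for Mcl1 1416880_at, 1437527_x_at and 1456243_x_at. Without tumors 5, 10, 11 and 12 it was 0.0547 for Bad 1416582_a_at, -0.0377 for Bcl2 1422938_at, 0.10 for Mcl1 1416880_at and 0.13 for Mcl1 1448503_at. Without tumors 2 to 4 it was -0.0747 for Bad 1416583_at, 0.0504 for Bcl2 1440770_at and -0.0394 for Mcl1 1416881_at. Without pituitary tumors 6 and 8 it was -0.28 for Bcl2 1422938_at, 0.41 for Bcl2 1440770_at, -0.36 for Bcl2l11 1435449_at, -0.47 for Bcl2l11 1456005_a_at and -0.13 for Mcl1 1416881_at.

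With single tumors left out, the difference ran from -0.0587 to 0.14 for Bad 1416583_at, from -0.0713 to 0.20 for Bcl2 1422938_at, from -0.48 to 0.55 for Bcl2 1440770_at, from -0.77 to 0.0903 for Bcl2 1443837_x_at and from -0.22 to 0.37 for Bcl2l11 1456005_a_at. For Mcl1 it ran from -0.0909 to 0.0854 in 1416880_at, from -0.29 to 0.0493 in 1437527_x_at, from -0.18 to 0.10 in 1448503_at and from -0.25 to 0.0422 in 1456243_x_at. The adjusted p over the alternatives was 0.0614 to 0.581 for Bcl2 1457687_at, 0.0462 to 0.533 for Bcl2l1 1420888_at, 0.0715 to 0.912 for Bid 1417045_at and 0.0452 to 1.0 for Pmaip1 (limma). Signals near the background of an array limit Pmaip1, Bak1 and several further probe sets, where a low signal gives no firm level.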
